A study of Prunus sibirica with 30 samples.

Results

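The 5 aquaporin genes described here were those of 143 genes in a table of abundant transcripts whose best Swiss-Prot match was named aquaporin PIP1-2, PIP1-4, PIP2-5, PIP2-7 or TIP1-1. They were followed in flowers of Siberian apricot (Prunus sibirica), for which the labels name the pistil at bloom and the extraction protocol speaks of flowers and flower buds. The study's stated subject is the genes involved in cold stress while the tree flowers. Clone 453, labelled CR and called strongly frost resistant, was set against clone 371, labelled NC and called weakly frost resistant. Flower organs of both clones were sampled before cold (0 h) and after 15 min, 30 min, 1 h and 2 h at -4 °C, with 3 libraries in each of the 10 groups and 30 libraries in all. Each clone is a single genotype, so differences between CR and NC are differences between these clones and cannot be assigned to frost resistance. No group was kept at another temperature for the same times, so an effect of cold and one of time or handling cannot be told apart. Whether the 3 replicates were taken from different trees is not stated. The p-values therefore rest on the spread between libraries, which may be partly technical.

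Aquaporins are channel proteins of the major intrinsic protein family that let water cross membranes faster than the lipid alone allows. Plasma membrane intrinsic proteins (PIPs) sit mainly in the cell's outer membrane and tonoplast intrinsic proteins (TIPs) in the membrane of the vacuole. In several plants PIP1 channels pass little water when made alone and reach the plasma membrane better together with a PIP2 partner. In tissues that freeze, ice usually forms first outside the cells and draws water out of them across these membranes. In Arabidopsis, short cold lowers the transcripts of most PIP genes, while PIP2-5 is known there as an exception that rises.

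Levels are FPKM as deposited by the authors, that is, fragments divided by the gene's length in kilobases and by a library size, and being per length they can be compared between genes. All 5 genes had a complete value in every library, and each value rested on 8366 to 38281 reads, so the counting error was at most 1.09%. The reads of the 143 genes together numbered 1731103 to 3544827 per library. The median FPKM of these 143 genes ranged from 544 to 1285 among libraries, and it was 0.38 higher on the log2 scale in CR than in NC over the 5 times. It was also 0.32 lower in NC at 2 h than in NC at 0 h. Differences are therefore given on the deposited scale and, where named so, relative to the median of the library. In such bulk samples fewer cells of a type and less RNA per cell cannot be told apart. None of the pistil markers looked for was among the 143 genes, 8 genes matched the search for green tissue such as sepals and 2 that for pollen and anther. The tissue label could therefore not be checked with this table.

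The aquaporins lay on 4 chromosomes of a genome build not named by the labels or the table. TIP1-1 (PaF106G0700027630.01) stands at chromosome 7, 13801257 to 13802486, on the plus strand. PIP1-4 (PaF106G0200009937.01) stands at chromosome 2, 23299032 to 23300468, on the minus strand. PIP2-5 (PaF106G0200009516.01) stands on the same chromosome at 21257413 to 21260728, on the plus strand, 2.04 Mb away, and these were the only members that shared a chromosome. PIP2-7 (PaF106G0800030605.01) stands at chromosome 8, 17406511 to 17408050, and PIP1-2 (PaF106G0500019704.01) at chromosome 5, 10033544 to 10036266, both on the plus strand. All 5 carry the major intrinsic protein domain, and no further member of that family was among the 143 genes. The gene length used for FPKM was 960 bases in PIP1-4 and 1523 bases in PIP1-2, the shortest and the longest. PIP2-5 had the longest interval between gene start and end, 3316 bases for a length of 1394. PIP genes are close relatives, and the treatment of reads that match several of them is not stated, so part of a level could belong to a relative.

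Over all 30 libraries TIP1-1, the vacuolar channel, was the most abundant at a mean of 1297 FPKM and ranked 26 among the 143 genes. The PIP1-type channel PIP1-4 followed at 1144 FPKM and the PIP2-type channel PIP2-5 at 1043 FPKM, with ranks of 38 and 47. The PIP2-type channel PIP2-7 averaged 715 FPKM and the PIP1-type channel PIP1-2 averaged 603 FPKM, with ranks of 104 and 139. The SD over the 30 libraries was 253 FPKM for TIP1-1 and 86.0 FPKM for PIP1-2, less than the difference between their means. PIP1-2 was the lowest of the 5 in 15 of 15 CR libraries and in 12 of 15 NC libraries. The PIP2-type members averaged 833 FPKM (PIP2-5) and 802 FPKM (PIP2-7) over the 15 CR libraries, against 1253 and 627 FPKM over the 15 NC libraries.

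The order of the abundant members differed between the clones. In CR, PIP2-5 lay above PIP1-4 in 0 of 15 libraries, while in NC it did so in 11 of 15. PIP2-5 exceeded PIP2-7 in 11 of 15 CR libraries and in 15 of 15 NC libraries. TIP1-1 was the highest of the 5 in 14 of 15 CR libraries and in 10 of 15 NC libraries. In CR the order of the group means at 2 h was TIP1-1 (1316 FPKM), PIP1-4 (1042), PIP2-5 (814), PIP2-7 (786) and PIP1-2 (635). The libraries of PIP2-5 and PIP2-7 overlapped there, while within a library PIP2-5 was the higher in 3 of 3, by a mean log2 ratio of 0.051 ± 0.027 (SD). In NC at 2 h the order was PIP1-4 (1379 FPKM), PIP2-5 (1288), TIP1-1 (935), PIP2-7 (436) and PIP1-2 (411). The libraries of PIP1-4 and PIP2-5 overlapped, and PIP1-4 was the higher in 2 of 3 of them. Those of PIP2-7 and PIP1-2 overlapped too, while within a library PIP2-7 was the higher in 3 of 3, by a mean log2 ratio of 0.086 ± 0.0085 (SD). In NC at 0 h TIP1-1 (1358 FPKM) stood above PIP2-5 (1246) and PIP1-4 (1118), followed by PIP2-7 (694) and PIP1-2 (653), and the libraries of TIP1-1 overlapped with those of PIP2-5.

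**Figure D1:**
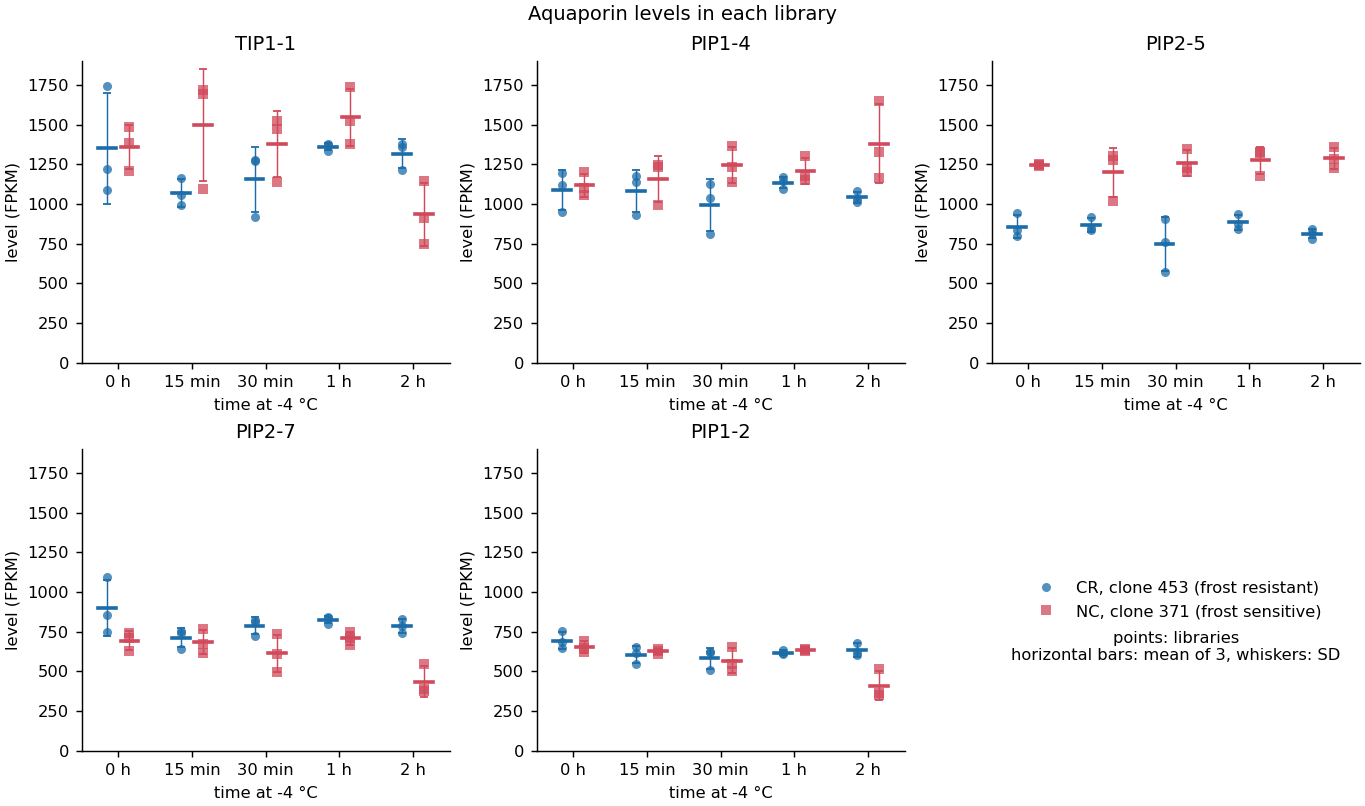
Level of each aquaporin in FPKM (vertical axes, from 0) by time at -4 °C (horizontal axes), with 1 point per library, bars at the mean of 3 libraries and whiskers at the SD, CR left of NC. All 15 CR libraries lie below all 15 NC libraries in the PIP2-5 panel, and the NC libraries at 2 h are the lowest of their clone in the PIP2-7 panel except that 1 of them (546 FPKM) lies above a library at 30 min (499 FPKM).

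The first comparison asked how the aquaporins of the resistant clone differed from those of the sensitive clone. PIP2-5 was lower in CR at every time, and averaged over the times it was the member with the widest difference. PIP1-4 was also lower in CR when averaged over the times, by a smaller amount. PIP2-7 was higher in CR and PIP1-2 slightly so on the deposited scale, and TIP1-1 did not pass the test. Averaged over the 5 times, 4 of 5 aquaporins passed, 2 higher and 2 lower in CR, in a table of which 88.8% of the genes passed (limma, Benjamini-Hochberg adjusted over 143 genes, threshold 0.05). The share is close to that of the table, whose genes were mostly higher in CR, with a median difference of 0.42 on the log2 scale.

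PIP2-5 had 941, 798 and 834 FPKM in CR at 0 h, against 1243, 1254 and 1239 FPKM in NC at 0 h. At 15 min it had 917, 833 and 846 FPKM in CR, against 1019, 1302 and 1276 FPKM in NC. At 30 min the values were 569.7, 908 and 761 FPKM in CR, against 1200.4, 1226 and 1349 FPKM in NC. The 30 min libraries of CR were the most spread, and all of them were still below every NC library. At 1 h PIP2-5 had 937, 873 and 841 FPKM in CR, against 1176, 1329.7 and 1319.7 FPKM in NC. At 2 h it had 842, 817 and 781 FPKM in CR, against 1282, 1356 and 1226 FPKM in NC. Over all times the 15 CR libraries lay between 569.7 and 941 FPKM and the 15 NC libraries between 1019 and 1356 FPKM, so the clones did not overlap. The share of the table without overlap over all times was not computed, and at single times it was 37.8% (15 min) to 90.2% (2 h). The mean difference of log2(FPKM + 1), CR minus NC, was -0.59 (SE 0.0563, limma adjusted p = 1.72e-10).

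The PIP2-5 difference passed the test at each of the 5 times, 0 h included. The values ran -0.54 (0 h), -0.46 (15 min), -0.78 (30 min), -0.53 (1 h) and -0.66 (2 h; limma adjusted p between 2.32e-05 and 0.0142). Without the third NC library at 15 min the difference at that time did not pass (adjusted p = 0.0694). Averaged over the times, the difference relative to the library median was -0.97.

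PIP2-7 went the other way on the deposited scale. It had 1097, 749 and 852 FPKM in CR at 0 h, against 742, 709 and 630.3 FPKM in NC at 0 h. At 2 h it had 830.1, 784 and 743 FPKM in CR, against 546, 374 and 388 FPKM in NC. The groups did not overlap at either time, as for 73.4% of the table at 0 h and 90.2% at 2 h, and the lowest CR library stood nearest to NC at 0 h. At 15 min the group means were 712 ± 61.4 FPKM in CR and 685 ± 75.5 FPKM in NC (SD, n = 3 each), which overlapped. The means were 788 ± 55.2 FPKM in CR and 614 ± 118 FPKM in NC at 30 min, and 826 ± 21.3 FPKM in CR and 709 ± 40.3 FPKM in NC at 1 h. The mean difference over the times was 0.38 (SE 0.0639, limma adjusted p = 4.06e-06), but relative to the library median it was -0.00052 (adjusted p = 0.994). The difference in PIP2-7 was thus as large as that in the library medians of all genes in the table. Centred on the median outside ribosomal proteins, PIP2-7 remained higher in CR and passed over the times and at 2 h. On that scale the difference was -0.0075 at 0 h and -0.041 at 15 min, and did not pass at either. At single times the PIP2-7 difference passed on the deposited scale at 0 h (0.36, adjusted p = 0.0248), 30 min (0.37, adjusted p = 0.0326) and 2 h (0.87, adjusted p = 3e-06). Relative to the median the 0 h difference was -0.16 and passed in the opposite direction (limma adjusted p = 0.04999), where 64.3% of the table passed. At 1 h the clones did not overlap, as for 74.1% of the table. The deposited difference of 0.22 passed only when the groups compared were fitted alone (limma adjusted p = 0.0138, against 0.196). That fit called 106 genes of the table at 1 h, against 68 in the main fit. The deposited 0 h difference did not pass without the first CR or the final NC library at that time. The 30 min difference did not pass without the second or the final CR library or the first or the final NC library at 30 min, or with only the groups compared (adjusted p = 0.0771).

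PIP1-4 overlapped between the clones at 0 h, 15 min and 1 h. At 30 min it had 812, 1126 and 1038 FPKM in CR, against 1231, 1139 and 1363 FPKM in NC. At 2 h it had 1031, 1082 and 1012 FPKM in CR, against 1327, 1649 and 1160.3 FPKM in NC. The CR libraries were below the NC libraries at both times. Groups did not overlap, in either direction, for 55.2% of the table at 30 min and 90.2% at 2 h. The difference was -0.34 (limma adjusted p = 0.0457) at 30 min and -0.39 (adjusted p = 0.00969) at 2 h, and averaged over the times it was -0.19 (SE 0.0616, adjusted p = 0.00539). When only the groups compared were fitted, neither passed (adjusted p = 0.0898 at 30 min and 0.0862 at 2 h). The 30 min difference was also lost in 16 of 30 fits that left out a single library, and the 2 h difference without the second NC library at 2 h, which held the highest PIP1-4 value of all (-0.25, adjusted p = 0.0956). Relative to the library median the mean difference was -0.57 and passed, where 69.2% of the table passed.

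PIP1-2 did not pass at any time before 2 h on the deposited scale. It averaged 694 ± 53.6 FPKM in CR and 653 ± 37.8 FPKM in NC at 0 h, and 619 ± 14.1 FPKM in CR and 636 ± 5.19 FPKM in NC at 1 h (SD, n = 3 each). At 2 h it had 681, 602 and 620.2 FPKM in CR, against 517, 350.2 and 365 FPKM in NC, with no overlap. The averaged difference of 0.14 (SE 0.0555, limma adjusted p = 0.0231) changed sign relative to the library median, to -0.24 (adjusted p = 3.07e-07). On that scale PIP1-2 was lower in CR and passed at 0 h (-0.43, adjusted p = 1.95e-05), 15 min (-0.21, adjusted p = 0.0379), 30 min (-0.19, adjusted p = 0.0403) and 1 h (-0.29, adjusted p = 0.00187), and did not pass at 2 h (-0.085, adjusted p = 0.293). The share of the table that passed there was 64.3% (0 h), 23.8% (15 min), 39.9% (30 min), 37.8% (1 h) and 62.9% (2 h).

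TIP1-1 averaged 1350.5 ± 348 FPKM in CR and 1358 ± 139 FPKM in NC at 0 h (SD, n = 3 each), with overlap. In CR it averaged 1071 ± 87.6 FPKM at 15 min, 1155 ± 205 FPKM at 30 min and 1361 ± 23.3 FPKM at 1 h. In NC it averaged 1499 ± 353 FPKM at 15 min, 1378 ± 209 FPKM at 30 min and 1545 ± 181 FPKM at 1 h. The CR means were the lower ones at all of these times, with libraries that overlapped, and none of the differences passed on the deposited scale. Centred on the library median, TIP1-1 was lower in CR and passed at 0 h (-0.55, limma adjusted p = 0.000231), 15 min (-0.61, adjusted p = 0.000306), 30 min (-0.49, adjusted p = 0.00159) and 1 h (-0.43, adjusted p = 0.00415). On that scale the average over the 5 times was -0.46 (adjusted p = 2.65e-08), where 69.2% of the table passed. At the single times 64.3% (0 h), 23.8% (15 min), 39.9% (30 min) and 37.8% (1 h) of the table passed relative to the median. At 2 h TIP1-1 had 1380.2, 1358 and 1211 FPKM in CR, against 1146, 749 and 910.3 FPKM in NC, so CR was higher without overlap. That difference was 0.51 (SE 0.183, limma adjusted p = 0.0105) on the deposited scale, and it was -0.22 (adjusted p = 0.0982) relative to the library median. It did not pass without the second NC library at 2 h, which held the lowest TIP1-1 value of all (0.36, adjusted p = 0.0855).

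At 0 h 2 aquaporins passed on the deposited scale, where 74.8% of the table passed. At 15 min 1 aquaporin passed against 14.7% of the table, and at 30 min 3 against 46.2%. At 1 h 1 passed against 47.6% of the table, and after 2 h all 5 passed against 90.2%. At 2 h TIP1-1, PIP2-7 and PIP1-2 were higher in CR and PIP1-4 and PIP2-5 lower, and the groups did not overlap for any of the 5, as for 90.2% of the table. Relative to the library median, PIP1-4 (-1.12) and PIP2-5 (-1.39) passed at 2 h and the other 3 did not, where 62.9% of the table passed. Relative to the median and averaged over the times, 4 of 5 passed, all lower in CR, where 69.2% of the table passed. These were TIP1-1, PIP1-4, PIP2-5 and PIP1-2, so TIP1-1 took the place that PIP2-7 had on the deposited scale.

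**Figure D2:**
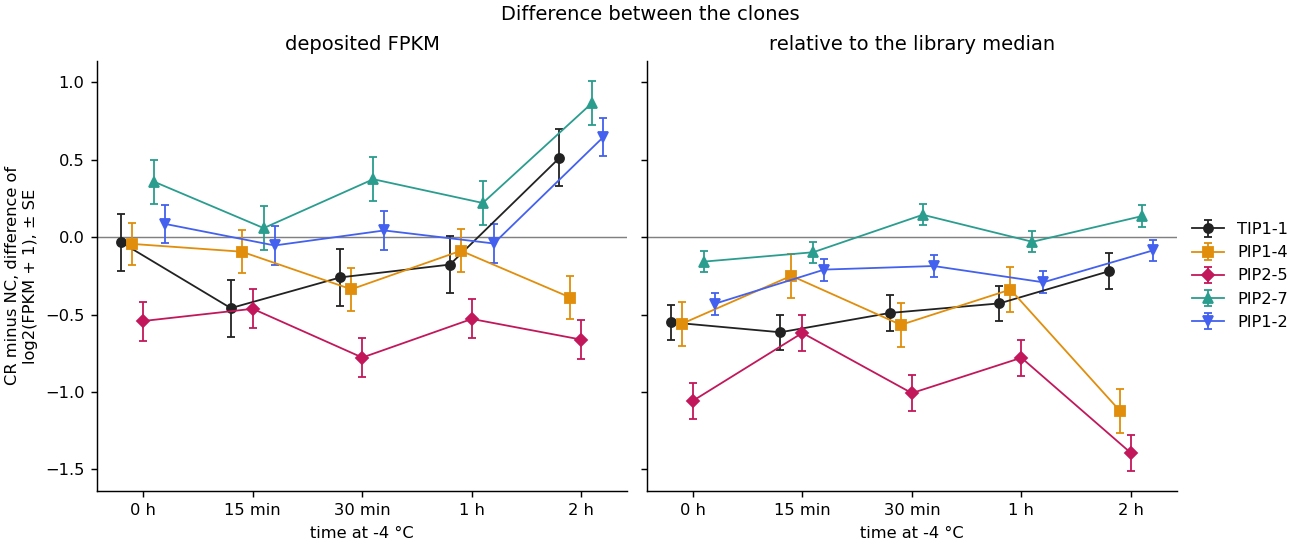
CR minus NC difference of log2(FPKM + 1) with its SE (vertical axis) by time at -4 °C, for each aquaporin on the deposited scale (left) and relative to the library median (right). PIP2-5 lies below 0 at all times on both scales, from -0.46 to -0.78 on the deposited scale, while PIP2-7 lies above 0 at all times on the left and between -0.16 and 0.15 on the right.

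The second comparison asked whether aquaporin levels changed with time at -4 °C in the resistant clone. In CR 0 of 5 aquaporins passed limma's F test over the 4 later times on the deposited scale, where 35% of the table did, and 0 of 5 had an unadjusted p under 0.05 or passed with voom weights. In the 20 limma comparisons of a single time with 0 h 0 passed, 1 had an unadjusted p under 0.05 and 1 passed with voom weights. At 15 min, 60.8% of the table passed, nearly all lower than at 0 h, and later 33.6% (30 min), 6.29% (1 h) and 0% (2 h) did. The nearest to the threshold was PIP2-7 at 15 min, with 755, 642 and 740.3 FPKM in CR at 15 min, against 1097, 749 and 852 FPKM in CR at 0 h. The groups overlapped, and the difference was -0.32 (SE 0.143, limma adjusted p = 0.0532). The first CR library at 0 h was the highest of its clone for TIP1-1, PIP2-5, PIP2-7 and PIP1-2, and its median FPKM over the 143 genes, 1285, was the highest of all 30 libraries.

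At 2 h the CR levels were close to those at 0 h. The differences were -0.0090 for TIP1-1, -0.057 for PIP1-4, -0.073 for PIP2-5, -0.18 for PIP2-7 and -0.13 for PIP1-2, with SE between 0.124 and 0.183. A difference of about the size of these errors was not detectable with 3 libraries. PIP1-2, at 506, 623 and 621 FPKM in CR at 30 min against 751, 645 and 684 FPKM in CR at 0 h, was lower without overlap, but the difference of -0.25 did not pass (limma adjusted p = 0.102). Groups did not overlap between these times for 38.5% of the table. By values centred on the library median, limma called 0 of 5 in the F test, with 2 at an unadjusted p under 0.05, where 16.1% of the table passed. At 15 min PIP2-5 passed on that scale at 0.38 (adjusted p = 0.0229), where 30.8% of the table passed. Its deposited level was 866 ± 45.3 FPKM in CR at 15 min, against 858 ± 74.3 FPKM in CR at 0 h (SD, n = 3 each), while the library median was 0.36 lower on the log2 scale.

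The third comparison asked the same of the sensitive clone. In NC 3 of 5 aquaporins passed the F test, namely TIP1-1, PIP2-7 and PIP1-2, where 69.9% of the table did. At 15 min, 30 min and 1 h limma called 0 of 5, with 0 at an unadjusted p under 0.05, against 2.1%, 0% and 0% of the table. At 2 h the vacuolar TIP1-1 and the plasma membrane channels PIP2-7 and PIP1-2 had fallen, while PIP1-4 and PIP2-5 did not pass. That made 3 of 5 aquaporins, all lower, at a time when 67.8% of the table passed and most of those genes were lower.

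PIP1-2 had 517, 350.2 and 365 FPKM in NC at 2 h, against 694, 619.8 and 645 FPKM in NC at 0 h. The 2 h libraries were all below the 0 h libraries, and the second and the final were the lowest of all 30. The difference was -0.69 (SE 0.124, limma adjusted p = 9.92e-05), and the mean at 2 h was 0.629 of that at 0 h. PIP2-7 had 546, 374 and 388 FPKM in NC at 2 h, against 742, 709 and 630.3 FPKM in NC at 0 h. Again the groups did not overlap, and the same libraries at 2 h were the lowest of all. Its difference was also -0.69 (SE 0.143, adjusted p = 0.000376), and the ratio of the means was 0.628. The share of genes whose groups did not overlap between these times was 51.7%.

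TIP1-1 had 1146, 749 and 910.3 FPKM in NC at 2 h, against 1483, 1383 and 1208 FPKM in NC at 0 h, without overlap. The difference was -0.56 (SE 0.183, limma adjusted p = 0.0108). It did not pass without the first NC library at 0 h (-0.49, adjusted p = 0.0563) or without the second NC library at 2 h (-0.41, adjusted p = 0.091). Without the second NC library at 2 h the F test of TIP1-1 did not pass either (adjusted p = 0.119). Relative to the library median it was -0.23 and did not pass (adjusted p = 0.113).

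PIP1-4 had 1327, 1649 and 1160.3 FPKM in NC at 2 h, against 1198, 1098 and 1057 FPKM in NC at 0 h. The groups overlapped, since the final 2 h library was below the first 0 h library, and the difference of 0.29 (SE 0.138) did not pass (limma adjusted p = 0.0625). PIP2-5 had 1282, 1356 and 1226 FPKM in NC at 2 h, against 1243, 1254 and 1239 FPKM in NC at 0 h, with overlap and a difference of 0.047 (SE 0.126, adjusted p = 0.732). Relative to the library median they were higher at 2 h, PIP1-4 by 0.61 (adjusted p = 0.00194) and PIP2-5 by 0.37 (adjusted p = 0.0147). On that scale PIP2-7 and PIP1-2 each remained lower, by a log2 difference of -0.37 (adjusted p = 0.000327 and 0.00038), where 41.3% of the table passed. The F test over the times relative to the median was passed by 5 of 5 in NC, against 58.7% of the table.

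**Figure D3:**
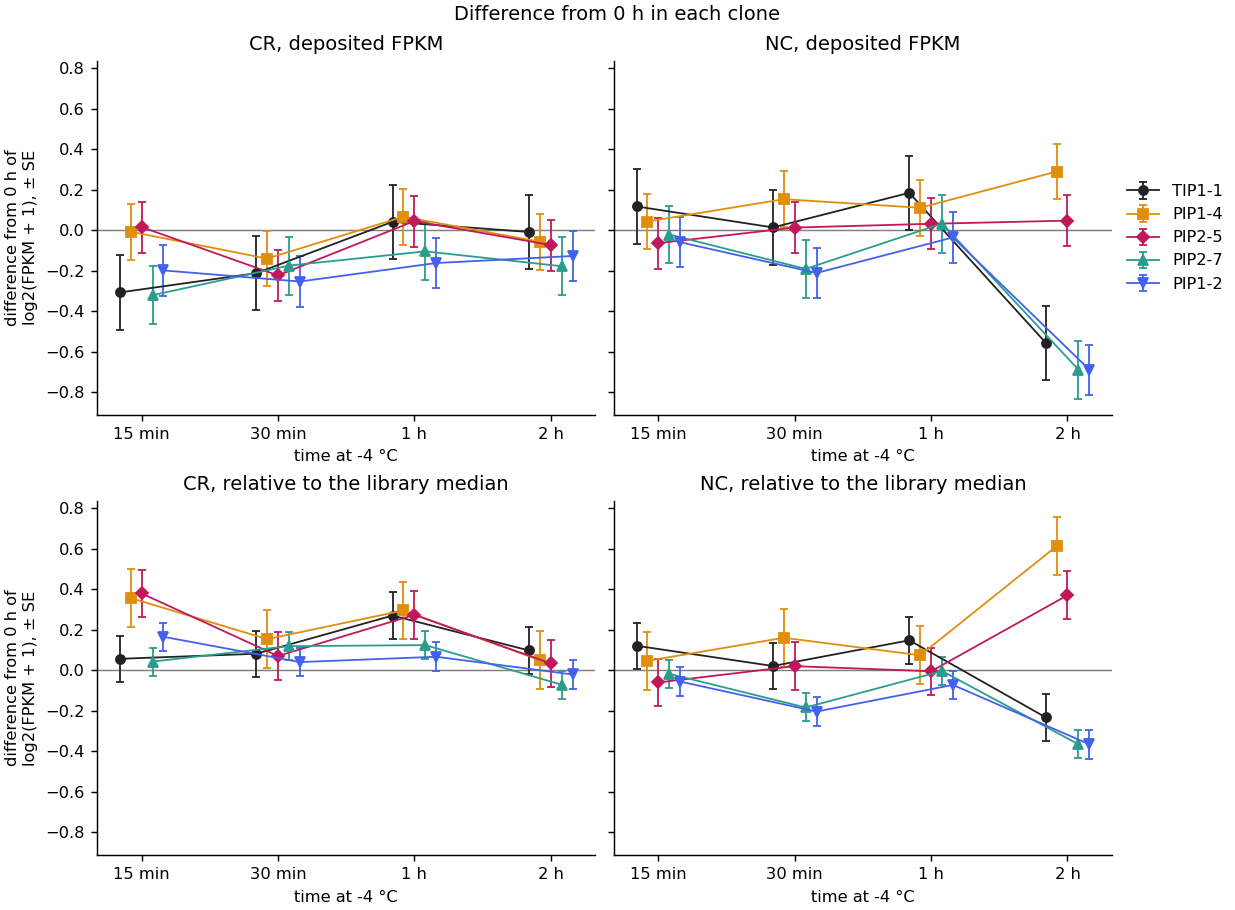
Difference of log2(FPKM + 1) from 0 h with its SE (vertical axis) at 15 min, 30 min, 1 h and 2 h, in CR (left) and NC (right), on the deposited scale (top) and relative to the library median (bottom). In NC at 2 h TIP1-1, PIP2-7 and PIP1-2 lie between -0.56 and -0.69 in the top row, and PIP1-4 (0.61) and PIP2-5 (0.37) lie above 0 in the bottom row.

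The fourth comparison asked whether the clones differed in their change with time. On the deposited scale the interaction F test was passed by TIP1-1 (limma adjusted p = 0.0165), PIP2-7 (0.011) and PIP1-2 (0.00557), where 78.3% of the table passed. At 2 h the change in CR minus the change in NC was 0.56 (SE 0.175, adjusted p = 0.0325) for PIP1-2, the only aquaporin that passed at that time, where 16.8% of the table did. It was 0.55 (SE 0.259, adjusted p = 0.117) for TIP1-1 and 0.51 (SE 0.202, adjusted p = 0.0693) for PIP2-7, which did not pass. The PIP1-2 value stayed between 0.46 and 0.74 when single libraries were left out. It did not pass without the second or the final CR library at 0 h, the first CR library at 2 h, the first NC library at 0 h or the second or the final NC library at 2 h (adjusted p up to 0.114). Relative to the library median the interaction was passed by PIP1-4 (adjusted p = 0.0124), PIP2-5 (0.00875) and PIP2-7 (0.0332), where 49% of the table passed. At 2 h on that scale 3 of 5 passed, where 24.5% of the table did. They were PIP1-4 (-0.56, limma adjusted p = 0.044), PIP2-7 (0.29, adjusted p = 0.031) and PIP1-2 (0.34, adjusted p = 0.0169). PIP2-7 was the only aquaporin whose interaction F test passed on both scales, and PIP1-2 the only one whose 2 h difference did. The comparisons with 0 h share their 0 h libraries and are not independent of each other.

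A ratio of 2 aquaporins taken within a library does not depend on how the library was scaled. All 10 pairs were compared between the clones with an exact permutation test that shuffled the clone labels within each time (3200000 arrangements, two-sided, adjusted over the 10 pairs). The clones differed in 9 of 10 pairs, which are built from 5 genes and are not independent of each other. The share of other gene pairs that differ or do not overlap was not computed. Of single genes, 88.8% passed limma averaged over the times on the deposited scale and 69.2% relative to the median. The widest of the 10 pairs was PIP2-5 over PIP2-7, both of the PIP2 type, at a mean log2 ratio of 0.055 ± 0.18 in CR and 1.03 ± 0.36 in NC (SD, n = 15 each). PIP2-5 and PIP2-7 were thus nearly level in CR, and PIP2-5 was the more abundant in NC. The ratio ran from -0.35 to 0.37 in CR libraries and from 0.72 to 1.86 in NC libraries, without overlap, and the difference of -0.97 had an exact p = 6.25e-07, the smallest that the test can give (adjusted p = 1.56e-06).

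PIP2-5 over PIP1-2 was lower in CR by a difference of -0.73 and TIP1-1 over PIP2-7 by -0.46, again without overlap between the clones (exact permutation, adjusted p = 1.56e-06 for each). PIP1-4 over PIP2-5 was higher in CR, at 0.36 ± 0.11 in CR and -0.045 ± 0.12 in NC (SD, n = 15 each, exact permutation, adjusted p = 1.56e-06). The scarce pair, PIP2-7 over PIP1-2, stood at 0.35 ± 0.11 in CR and 0.11 ± 0.090 in NC (exact permutation, adjusted p = 5e-06). TIP1-1 over PIP1-4 was the pair that did not pass, with a difference of 0.11 and an exact p = 0.397. In each of the 9 pairs that passed, the difference had the same direction at 5 of 5 times, but its size varied. TIP1-1 over PIP2-5 was nearly level at 15 min, at 0.305 in CR and 0.301 in NC. PIP1-4 over PIP1-2 stood at 0.84 in CR and 0.88 in NC at 15 min, against 0.72 in CR and 1.75 in NC at 2 h.

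The time course of the ratios was tested in each clone by an exact permutation of the F value over the 5 times, 20 tests in all, and 0 of 20 passed after adjustment. An unadjusted p under 0.05 was found in 8 tests, 6 in NC and 2 in CR, and the smallest adjusted p was 0.0655, shared by 6 tests in NC. Those were the ratios of PIP1-4 or PIP2-5 to TIP1-1, PIP2-7 or PIP1-2. PIP1-4 over PIP1-2 had log2 ratios of 1.36, 2.23 and 1.67 in NC at 2 h, against 0.79, 0.82 and 0.71 in NC at 0 h. The 2 h libraries were all higher than those at 0 h, but the lowest of them was below the final NC library at 30 min, at 1.44. PIP2-5 over PIP2-7 had 1.23, 1.86 and 1.66 in NC at 2 h, against 0.74, 0.82 and 0.97 in NC at 0 h, and the same library at 30 min stood at 1.43. In CR the ratios moved by between -0.050 and 0.17 at 2 h relative to 0 h.

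The ratios among the 3 that fell moved less in NC. These 3 were grouped by their fall in the same libraries, so steadier ratios among them follow in part from that choice. PIP2-7 over PIP1-2 averaged 0.086 in NC at both 2 h and 0 h, and TIP1-1 over PIP1-2 averaged 1.19 in NC at 2 h, against 1.05 in NC at 0 h. TIP1-1 over PIP2-7 averaged 1.1 in NC at 2 h, against 0.97 in NC at 0 h, without overlap. Its lowest value in NC at 2 h was 0.9998 and its highest in NC at 0 h was 0.9986. PIP1-4 over PIP2-5 averaged 0.084 ± 0.18 in NC at 2 h, against -0.16 ± 0.093 in NC at 0 h (SD, n = 3 each), with overlap.

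**Figure D4:**
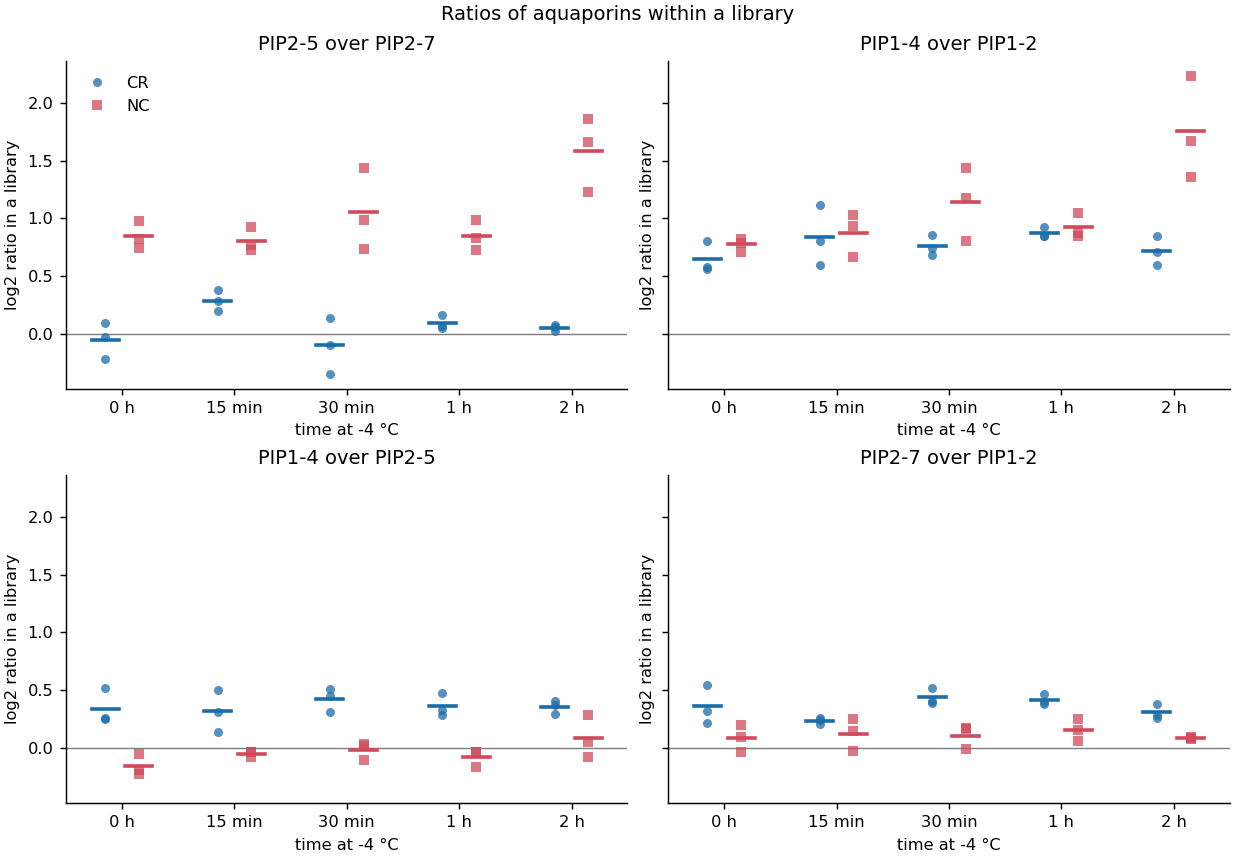
Log2 ratio of 2 aquaporins within each library (vertical axes) by time at -4 °C, with 1 point per library and bars at the mean of 3, CR left of NC, for 4 of the 10 pairs. PIP2-5 over PIP2-7 separates the clones at every time, with CR between -0.35 and 0.37 and NC between 0.72 and 1.86, and PIP2-7 over PIP1-2 shows no step at 2 h in NC.

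The make-up of the 5 was also compared with their sum. The summed level was 4592 ± 204 FPKM in CR at 2 h and 4448 ± 386 FPKM in NC at 2 h (SD, n = 3 each), with overlap. At 0 h it was 4889 ± 718 FPKM in CR and 5068 ± 291 FPKM in NC. PIP1-4 and PIP2-5 together made up 40.4% ± 0.964 of the sum in CR at 2 h and 60.1% ± 6.55 in NC at 2 h. At 0 h they made up 40.1% ± 3.18 in CR and 46.7% ± 1.27 in NC. In NC the 3 libraries at 2 h held 54.2% to 67.1%, above the 45.5% to 48.0% of the 3 libraries at 0 h. A library of NC at 30 min reached 55.9%, within the range at 2 h. PIP1-4 and PIP2-5 are the members not called lower in NC at 2 h, so the rise of their share follows in part from this.

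Levels of the members were also correlated across libraries, which share scaling and depth, so the values are descriptions. They are on the deposited scale unless named relative to the median. PIP2-7 and PIP1-2 had a Pearson r of 0.768 over the 15 CR libraries and 0.963 over the 15 NC libraries, or 0.831 over the 12 NC libraries without 2 h. PIP1-4 and PIP2-5 had 0.772 in CR and 0.73 in NC, or 0.768 in NC without 2 h. PIP1-4 and PIP2-7 had 0.289 in CR and -0.497 in NC, or -0.136 in NC without 2 h. TIP1-1 and PIP2-7 had 0.868 in CR and 0.909 in NC, or 0.717 in NC without 2 h. Within the PIP1 and PIP2 subgroups, PIP1-4 and PIP1-2 had 0.434 in CR and -0.596 in NC, or -0.486 in NC without 2 h. PIP2-5 and PIP2-7 had 0.438 in CR and -0.159 in NC, or 0.0571 in NC without 2 h. Relative to the library median, PIP2-7 and PIP1-2 had 0.352 in CR and 0.853 in NC, and PIP1-4 and PIP2-5 had 0.833 and 0.934. On that scale PIP1-4 and PIP2-7 had 0.278 in CR and -0.823 in NC, and TIP1-1 and PIP2-7 had 0.548 and 0.694. PIP1-4 and PIP1-2 had 0.638 in CR and -0.825 in NC there, and PIP2-5 and PIP2-7 had 0.376 and -0.796.

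The genes outside the family most like each member were ranked by the smaller of the r in CR and the r in NC, over 15 libraries each and relative to the library median. For PIP1-4 they were polyubiquitin (0.657), the cysteine protease RD19A (0.594), named for its response to dehydration in Arabidopsis, and an S-adenosylmethionine decarboxylase (0.589), an enzyme of polyamine synthesis. For PIP2-5 the first places also went to polyubiquitin (0.808) and RD19A (0.594), followed by a gene without a Swiss-Prot name (0.535). For PIP1-2 they were the ribosomal proteins L7a-1 (0.825) and L3 (0.812) and tubulin beta-1 (0.802). For PIP2-7 they were a pair of L10 ribosomal protein genes (0.697 and 0.651) and a tubulin alpha (0.614). For TIP1-1 they were the ribosomal protein L5-2 (0.649), a mitochondrial glycine-rich RNA-binding protein (0.631) and a gene without a Swiss-Prot name (0.622).

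Genes of water stress and growth were read beside the aquaporins. Limma called 7 of 143 genes higher and 90 lower in NC at 2 h on the deposited scale. A search for dehydration and cold genes found 4, of which 3 rose and 1 fell in NC at 2 h, with a median difference of 0.77. Those that rose were ARG2 (2.32), which has a late embryogenesis abundant domain, RD19A (0.81) and RCI2B (0.73), a small membrane protein. HSP90-2, a chaperone, fell by 0.74 on the log2 scale. Of 2 cell wall genes, xyloglucan endotransglucosylase/hydrolase 9 fell by 0.33 on the deposited scale, a difference that did not pass relative to the library median (-0.011, adjusted p = 0.92). Arabinogalactan protein 31 had a difference of -0.049 that did not pass on the deposited scale. In CR at 2 h limma called 0 of these 6 genes, as it called no gene of the table. Searches for proton pumps and other transporters, and for regulators of channel gating and trafficking such as 14-3-3 proteins and calmodulin, found 0 genes in the table.

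Other groups moved at the same time as TIP1-1, PIP2-7 and PIP1-2 in NC, as did most of the table. Of all 143 genes, 7 rose and 90 fell in NC at 2 h on the deposited scale, and 21 rose and 38 fell relative to the library median. Of 69 ribosomal protein genes, 0 rose and 54 fell in NC at 2 h on the deposited scale, with a median difference of -0.40. Relative to the library median 18 of the 69 were lower and 2 higher, a share of lower genes close to that of the table. Of 8 genes found by the words of the green tissue search, early nodulin-like protein 3 among them, 0 rose and 6 fell, or 1 rose and 3 fell relative to the library median. Their summed level was 5305 to 7488 FPKM in NC at 2 h, against 9079 to 10776 FPKM in NC at 0 h, and it was 11057 to 11366 FPKM in CR at 2 h, against 9602 to 14239 FPKM in CR at 0 h. The 2 genes found by the words of the pollen and anther search were an Olee1-like protein and arabinogalactan protein 31, the cell wall gene named above. Their summed level was 1516 to 1669 FPKM in NC at 2 h, against 1742 to 1879 FPKM in NC at 0 h. Whether the genes of these searches mark a tissue here was not tested. Of 6 household genes, 1 rose and 4 fell, or 1 rose and 3 fell relative to the library median. The part of tissue make-up and of the lower library median in the aquaporin values was not tested.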

How the data were processed

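RNA sequencing values of 30 libraries were used, 3 for each clone and time. The authors deposited FPKM, 1 column per library, for genes listed with a description, coordinates and a length. Per the submitters' processing notes, the tools included HISAT2, GATK, Picard and SAMtools 0.1.18, whose roles are not stated. No source used here gives the read counter, annotation or genome build. The table held 143 complete genes, from a mean of 3835 to 594 FPKM, and 1 incomplete entry was left out. Less abundant genes, other aquaporins among them, were not analysed here. The median of a library is thus that of its abundant genes, 69 of which encode ribosomal proteins.

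FPKM times gene length gave whole multiples of 1 step per library for 4290 of 4290 values (tolerance 1e-06), hence the reads behind each value. Intervals from reads cover counting error only. The 143 genes took 9.75% to 20.5% of the library size that the step implies.

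Limma 3.58.1 in R 4.3.3 was fitted to log2(FPKM + 1) with 10 group means and a mean-variance trend, over all 30 libraries, with two-sided p-values adjusted by Benjamini-Hochberg over 143 genes at a threshold of 0.05. Differences on this scale slightly understate fold changes. A filter of at least 1 FPKM in 3 libraries removed no gene. Relative values were centred on the median of each library. Ratios within a library were compared by exact permutation with Python 3.11.15. The limma fit and the permutation tests were tested on simulated data. Alternatives were a pseudocount of 0.1, no filter, no trend, 2 centrings, voom on the recovered reads, only the groups compared, a replicate block and leaving out each library.

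The 5 members, the gene lists and the tests were chosen with earlier results of these data known. All 5 members are named. The genes most like each were the 3 with the highest smaller r of both clones, and single list genes are named where a count concerns 5 or fewer.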

Additional observations from a re-analysis of the deposited data

Results flagged for a closer look

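On the deposited scale the clones differed in their change with time for 3 aquaporins, by a test of the difference itself. The change of PIP1-2 at 2 h was -0.13 in CR and -0.69 in NC, a difference of 0.56 (CR minus NC, limma adjusted p = 0.0325). The interaction over all 4 times passed for PIP1-2 (adjusted p = 0.00557), for PIP2-7 (adjusted p = 0.011) and for TIP1-1 (adjusted p = 0.0165), where 78.3% of the table passed. Relative to the library median the interaction passed for PIP2-7 (adjusted p = 0.0332) and did not pass for PIP1-2 (adjusted p = 0.0538) or TIP1-1 (adjusted p = 0.223). The 2 h difference of PIP1-2 passed relative to the median too (0.34, limma adjusted p = 0.0169). On the deposited scale the 2 h difference of PIP1-2 did not pass in 6 of 30 fits that left out a single library. For TIP1-1 the interaction did not pass without the first CR library at 2 h or without the second NC library at 2 h.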

How the results depend on the processing

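The clone difference averaged over the times was not fitted with only the groups compared. Under each other alternative it called 4 of 5 aquaporins, except centring outside ribosomal proteins, which called 5. Centring on the median of all genes swapped a member, with TIP1-1 gained (-0.46) and PIP2-7 lost, and directions depended on the scaling. Centred on the median of all 143 genes, the CR minus NC difference turned to -0.16 for PIP2-7 and -0.43 for PIP1-2 at 0 h, -0.097 for PIP2-7 at 15 min, -0.19 for PIP1-2 at 30 min, -0.029 for PIP2-7 at 1 h, -0.22 for TIP1-1 and -0.085 for PIP1-2 at 2 h, and -0.00052 for PIP2-7 and -0.24 for PIP1-2 over the times. Centred on the median outside ribosomal proteins, it turned to -0.0075 for PIP2-7 and -0.28 for PIP1-2 at 0 h, -0.041 for PIP2-7 at 15 min, -0.021 for PIP1-2 at 30 min and -0.090 for PIP1-2 over the times. The F test in NC called 5 of 5 when centred on the median, and outside ribosomal proteins single times in NC called 5 and the interaction 5, against 3 each. In CR the 20 single times called 1 under both centrings (PIP2-5 at 15 min), with voom and with the replicate block (PIP2-7 at 15 min, adjusted p = 0.049 and 0.0468), against 0. The block changed no other call. Whether replicate numbers pair the libraries was not tested. The median correlation of deviations was 0.068 in 135 pairs with the same number (-0.746 to 0.756) and -0.0471 in 270 pairs with different numbers (-0.761 to 0.741). With single libraries left out, CR single times called 0 to 2, NC single times 2 to 4, clone differences at single times 10 to 13, the interaction 2 to 3, and ratios over time 0 to 9, the 9 without the first CR library at 0 h or the second at 30 min. Single aquaporins kept their side of the threshold with a pseudocount of 0.1, without the filter and without the trend. The cause of these changes was not tested. The counting error was at most 1.09% per value.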
